A study of Homo sapiens with 22 samples.

Results

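Exon usage after METTL3 knockdown was described over all 2635 exonic bins of the authors' deposited table of 2635 bins, so the comparison of METTL3 knockdown with its control covers every listed bin. The members were taken by comparison and not by any measured value. The bins lay in 636 gene models on 22 chromosomes of the hg19 build. To make exonic bins, the exons of a gene model are split wherever any of its transcripts starts or ends an exon, and the usage of a bin is its share of the model's reads.

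The study used HEK293T, an established human cell line of embryonic kidney origin, and holds 12 RNA-seq libraries in 6 groups of 2, beside 10 PAR-CLIP libraries that were not analysed here. METTL3 knockdown (2 libraries, genotype given as METTL3 knockdown) was compared with the control of the METTL series (2 libraries, genotype given as wild type). METTL14 knockdown (2 libraries) had the same control libraries, while the HNRNPG knockdowns KD1 and KD2 (2 libraries each) had a control of their own. The agent of each knockdown, and whether paired libraries came from separate cultures, were not stated in the labels, and the knockdown of METTL3 could not be checked because the table holds no level of any gene.

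METTL3 is the catalytic subunit of the complex that methylates adenosine in mRNA to N6-methyladenosine (m6A), and METTL14 is its partner, which holds the RNA. The mark is found mostly in long internal exons and near stop codons. Reader proteins, HNRNPG (gene RBMX) among them, bind RNA where the mark is present or where it opens the RNA structure.

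All values below are the log2 ratio of knockdown over control for the usage of 1 bin, with the sign of the deposited ratio turned so that a positive value is higher usage in the knockdown. By its title, the authors' deposited table lists exons in genes that contain HC-m6A sites, as written there. All bins below therefore means bins of such genes, and the shares do not describe other genes. The table holds 1 value for each bin and knockdown, with no value per library, no error and no p-value. No difference below therefore has a test or a replicate check, and the depth behind each value is unknown. A bin is said to be past 1 where the size of its value was at least 1, which is a usage 2 times higher or at most 0.5 of the control's. Usage is relative within a gene model, so a change in some bins moves the values of the others, and touching bins can share reads.

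More bins were lower than higher after METTL3 knockdown. Of 2635 bins, 151 (5.73%) were past 1 in METTL3 knockdown, against 68 (2.58%) in METTL14 knockdown. Those of METTL3 knockdown were 47 higher bins (1.78%) in 27 models and 104 lower bins (3.95%) in 68 models. At a size of at least 0.5 the count was 590 bins (22.4%), with 201 higher (7.63%) and 389 lower (14.8%), against 422 bins (16.0%) in METTL14 knockdown. The lower side was therefore the larger one at either size.

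Lower bins outnumbered higher ones at each of the 7 sizes examined in METTL3 knockdown, and in METTL14 knockdown also at sizes up to 1.5. At a size of at least 0.25, METTL3 knockdown had 537 higher and 846 lower bins, where METTL14 knockdown had 377 higher and 676 lower. At a size of at least 1, the 47 higher and 104 lower bins of METTL3 knockdown stood beside 23 higher and 45 lower in METTL14 knockdown. The excess of lower bins was thus found in both METTL knockdowns, and their counts differed most in direction among the few bins of largest size. At a size of at least 2, METTL3 knockdown had 4 higher and 15 lower bins, where METTL14 knockdown had 2 higher and 1 lower. At a size of at least 5, METTL3 knockdown had 1 higher and 6 lower bins, where METTL14 knockdown had 1 of each. The centre of the values was close to 0, with a median of -0.04 over all bins in METTL3 knockdown and -0.04 in METTL14 knockdown. In METTL3 knockdown 53.4% of all bins were below 0, and the quartiles were -0.34 and 0.20.

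**Figure D1:**
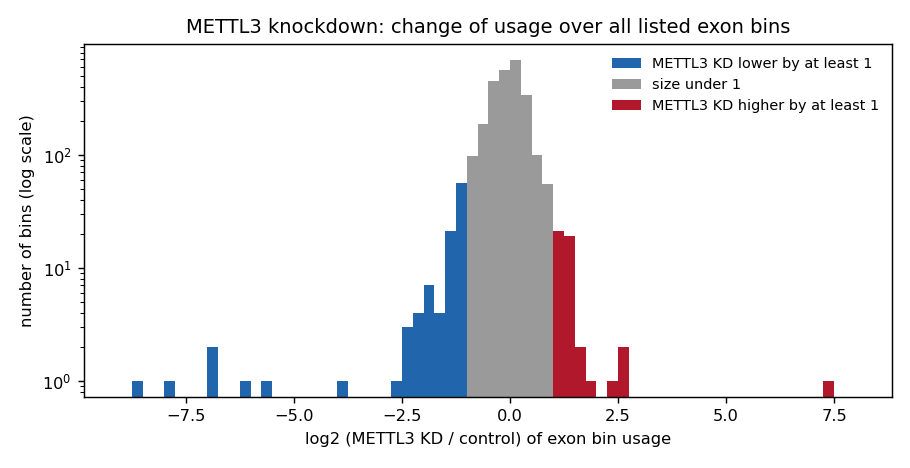
Number of exonic bins (log scale) by the log2 ratio of METTL3 knockdown over control, in steps of 0.25. The 104 bins lower by at least 1 reach further from 0 than the 47 higher ones, with 6 bins past 5 on the lower side and 1 on the higher side.

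The bins lowest in METTL3 knockdown came from genes of unlike function. The authors' deposited table gave -8.62 in METTL3 knockdown for bin 19 of BRP44L (now MPC1, a subunit of the mitochondrial pyruvate carrier), a bin of 4 bp, with -1.46 in METTL14 knockdown. NXN, which encodes the redox protein nucleoredoxin, was at -6.76 for its 1 listed bin in METTL3 knockdown and at -0.91 in METTL14 knockdown in the authors' deposited table. For ARFIP2 (arfaptin-2, a membrane-curving protein of the Golgi) the authors' deposited table gave -6.13 for bin 20 in METTL3 knockdown and -0.48 in METTL14 knockdown. In each of these genes the value of METTL14 knockdown lay on the same side but was far smaller.

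TXNL4A, a subunit of the U5 particle of the spliceosome, had 1 such bin. In the authors' deposited table its bin 18 (chromosome 18, 77739333 to 77739640, minus strand) was at -5.75 in METTL3 knockdown and at -0.29 in METTL14 knockdown. Its other 4 bins ran between -0.07 and 0.66 in METTL3 knockdown in the authors' deposited table. HNRNPG knockdown lay on the other side for bin 18, with 0.52 in KD1 and 0.84 in KD2 in the authors' deposited table. Of the 4 knockdowns, METTL3 knockdown alone had a value below -0.5 for this bin.

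Further low bins fell in genes of RNA processing and transcription. Against 5.73% of all bins past 1, the list with hnRNPs and other splicing regulators had 3 of 96 (3.12%). The core spliceosome had 2 of 27 (7.41%), SR proteins 0 of 45, and cleavage, export and decay factors 0 of 58. TAF15, which binds RNA and belongs to the FET proteins, was at -2.37 for bin 16 in METTL3 knockdown and -1.87 in METTL14 knockdown in the authors' deposited table, while KD1 and KD2 were at 0.34 and 1.65. PRPF8, the central protein of the U5 particle, was at -1.99 for bin 48 in METTL3 knockdown and -0.63 in METTL14 knockdown, with 1.55 in KD1 and 0.92 in KD2 in the authors' deposited table. Both bins were lower with either METTL protein depleted and higher with HNRNPG depleted. POLR2F, a subunit shared by the RNA polymerases, was at -1.999 for bin 9 in METTL3 knockdown and -0.66 in METTL14 knockdown in the authors' deposited table. TOX4, an HMG-box protein, had both of its 3'-most bins low, at -1.82 and -2.34 in METTL3 knockdown against -0.28 and -0.22 in METTL14 knockdown in the authors' deposited table.

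Among the lowest bins were also 2 of mitochondrial genes, although the mitochondrial list as a whole had 5 of 88 bins past 1 (5.68%) and a median of 0.01. MFF, the fission factor of the outer membrane, was at -2.13 for bin 51 in METTL3 knockdown and -1.77 in METTL14 knockdown in the authors' deposited table, and bin 52, which touches it, was at 0.31 and 0.39. NDUFS8, a subunit of complex I, was at -1.87 for bin 33 in METTL3 knockdown and -1.86 in METTL14 knockdown in the authors' deposited table. These bins had nearly the same value in both knockdowns.

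Only 1 higher bin was at least 3 in size, against 7 lower ones. The highest value in the authors' deposited table was 7.27 in METTL3 knockdown, with 7.00 in METTL14 knockdown, for a bin of 9 bp in the joined model ATF2 and CHN1. RALGAPA1, which encodes an activator of Ral GTPases, was at 2.59 for bin 14 and at -6.90 for bin 60 in METTL3 knockdown in the authors' deposited table. FZR1, which activates the anaphase-promoting complex, was at 1.65 for bin 7 in METTL3 knockdown and 0.74 in METTL14 knockdown, with 0.83 in KD1 and 1.42 in KD2 in the authors' deposited table. BSG, a membrane partner of lactate transporters, was at 1.22 for bin 5 in METTL3 knockdown and 0.92 in METTL14 knockdown, with 1.01 in KD1 and 1.58 in KD2 in the authors' deposited table. FZR1 and BSG were thus higher in all 4 knockdowns.

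Bins of 2 actin regulators and a phosphatase were higher in both METTL knockdowns. The cytoskeletal list as a whole had 2 higher and 3 lower of 135 bins past 1 in METTL3 knockdown. On the lower side, MYH10 bin 7 was at -1.26 and MAP4 bin 38 at -1.07 in METTL3 knockdown in the authors' deposited table. ENAH, which promotes actin filament growth, was at 1.25 for bin 28 in METTL3 knockdown and 0.99 in METTL14 knockdown in the authors' deposited table. MPRIP, which links myosin phosphatase to actin, was at 1.33 for bin 30 in METTL3 knockdown and 1.53 in METTL14 knockdown in the authors' deposited table. Its 3 bins that follow and touch bin 30, of which bin 32 holds a listed m6A site, were between 0.57 and 0.73 in METTL3 knockdown in the authors' deposited table, while its 3'-most bin was at -0.73. PPM1G, a protein phosphatase, was at 1.40 for bin 7 in METTL3 knockdown and 1.90 in METTL14 knockdown, but at -0.91 in KD1 and -0.37 in KD2 in the authors' deposited table. The knockdowns of the METTL series and those of the HNRNPG series thus lay on opposite sides for this bin.

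Changes of METTL3 knockdown were sorted by the class of bin. By length, the share of bins past 1 was 6.61% under 20 bp, 5.58% from 20 to under 100 bp, 6.04% from 100 to under 500 bp and 5.18% at 500 bp and longer. These shares lay close to the 5.73% over all bins. In single-gene models 126 of 1606 bins were past 1 (7.85%), against 25 of 1029 bins (2.43%) in models that join several genes under 1 name. Models with 1 listed bin had 9.63% of bins past 1, those with 2 to 3 had 5.81%, those with 4 to 9 had 6.08% and those with 10 or more had 4.73%. Joined models and models with 10 or more listed bins were therefore both lower in share than all bins. Bins of joined models were also shorter, with a median of 114 bp against 220 bp in single-gene models.

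Bins closer to a listed m6A site of their model had lower medians. In METTL3 knockdown the median was -0.13 in the 96 bins with a site inside, -0.09 in the 366 within 1 kb, -0.09 in the 928 at 1 to 10 kb and 0.02 in the 1245 farther away. In METTL14 knockdown the medians of the same classes were -0.13, -0.10, -0.04 and -0.03. The differences between classes were small beside the spread of single bins. The classes also differed in length, with a median of 757 bp for bins with a site inside and 156 bp for those farther than 10 kb.

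Bins lower past 1 were less frequent beyond 10 kb than in the 3 nearer classes. In METTL3 knockdown 1 bin was higher and 6 were lower among the 96 with a site inside, which is 7.29% past 1. Within 1 kb it was 5 higher and 18 lower (6.28%), at 1 to 10 kb it was 18 higher and 47 lower (7.00%), and beyond 10 kb it was 23 higher and 33 lower (4.50%). The share of lower bins was 6.25% with a site inside and 2.65% beyond 10 kb, while the share of higher bins was 1.04% and 1.85%. In single-gene models alone the share of lower bins was 6.15% with a site inside, 7.0% within 1 kb, 6.32% at 1 to 10 kb and 3.85% beyond 10 kb, so the nearer classes had no fixed order among themselves.

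**Figure D2:**
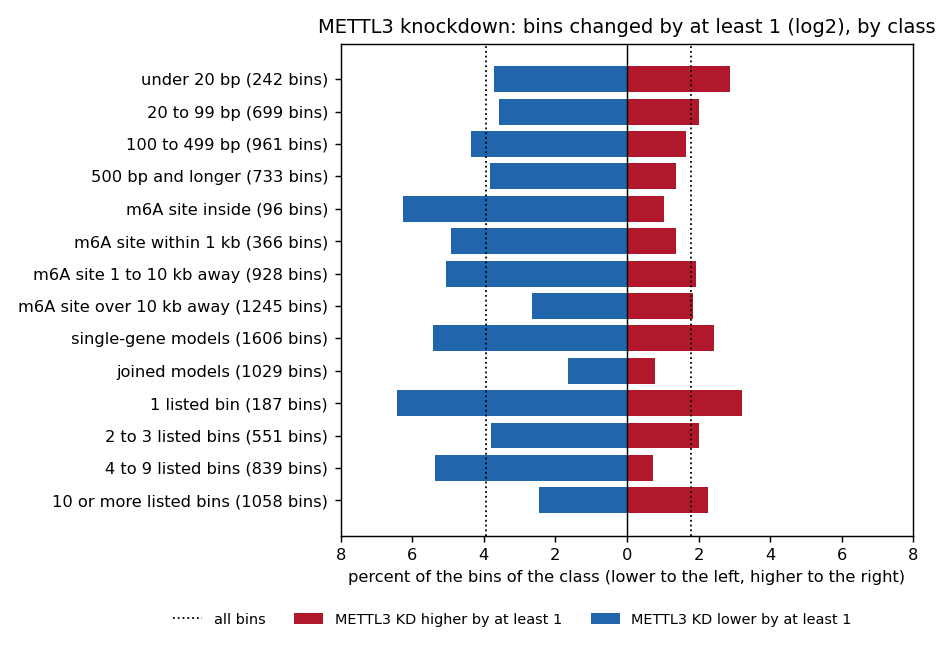
Percent of the bins of each class that were lower (left) or higher (right) by at least 1 in METTL3 knockdown, with dotted lines at the 3.95% and 1.78% of all bins. Bars on the lower side are longest for models with 1 listed bin (6.42%) and bins with an m6A site inside (6.25%), and shortest for joined models (1.65%).

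The median over bins of METTL3 knockdown had a different sign on the 2 sides of the nearest listed site. It was 0.01 over the 1455 bins whose nearest site was upstream and -0.10 over the 1084 bins whose nearest site was downstream. With 1 median per model both were below 0, at -0.006 and -0.106. In METTL14 knockdown the medians over bins were -0.05 and -0.03, so the order was the other way. In the 286 models with at least 3 listed bins, the 5'-most bin had a median of -0.09 in METTL3 knockdown, the 3'-most bin -0.01, and bins between them -0.04. The same classes were at -0.01, -0.04 and -0.04 in METTL14 knockdown. None of these orders was tested.

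Bins that hold a listed m6A site and were past 1 in METTL3 knockdown were few enough to name. C11orf59 bin 2 was the 1 higher bin, at 1.38 in METTL3 knockdown and 0.33 in METTL14 knockdown in the authors' deposited table. The lower ones were in the joined models KIAA0100 with SGK494 and SPAG5 and CRYBB2P1 with ADRBK2, and in DEF8, RBM26, ZDHHC3 and ANKLE2. In the authors' deposited table these 6 bins were between -1.56 and -1.05 in METTL3 knockdown and between -0.55 and -0.08 in METTL14 knockdown. RBM26, an RNA-binding protein, was the only one of the 7 beyond 0.5 in METTL14 knockdown.

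Of the 151 bins past 1 in METTL3 knockdown, 88 had a METTL14 value under 0.5 in size, which is 3.34% of all bins. They are called METTL3-only below, as a description of the table's values: the difference between the knockdowns was not tested. A further 37 bins had a METTL14 value of 0.5 to under 1, and 26 had one of at least 1. A METTL14 value of at least 0.5 in size was thus found in 63 of the 151 bins, against 16.0% of all bins. Bins past 1 in METTL3 knockdown were therefore under 0.5 in METTL14 knockdown less often than bins in general. The converse set, past 1 in METTL14 knockdown and under 0.5 in METTL3 knockdown, held 22 of 68 bins. Over all bins, 22.4% had a METTL3 value of at least 0.5 in size. METTL3-only bins were thus the larger group, and METTL3 knockdown also had the larger number of bins past 1 to begin with.

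METTL3-only bins were mostly lower bins. Of the 88, 14 were higher in 9 models and 74 were lower in 45 models, which is 84.1% lower. Among the 63 bins past 1 in METTL3 knockdown whose METTL14 value was at least 0.5 in size, 47.6% were lower. With 1 bin per model, the bin whose METTL3 value was largest in size on either side, these shares were 84.9% of 53 and 58.1% of 43. The lower side was therefore the larger one in METTL3-only bins also when DEF8, which holds 12 of them, counted as 1. Of the 53 models, 39 held 1 such bin and 8 held 3 or more.

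The HNRNPG knockdowns, which had their own control, were on the same side as METTL3 knockdown in most METTL3-only bins. Of the 88 bins, 76 (86.4%) were on the same side in KD1, 69 (78.4%) in KD2 and 66 in both, against 65.2% in KD1, 66.7% in KD2 and 53.3% in both over all bins. With 1 bin per model the shares were 77.4%, 71.7% and 66.0% of 53 models, against 65.9%, 67.8% and 55.0% of all 636. KD1 was at least 0.5 in size on the same side in 37 of the 88 and on the other side in 3, and KD2 in 42 and 12. The shares of METTL3-only bins were nearer to those of all models once each model counted once. Among all 151 bins past 1 in METTL3 knockdown, the shares were 81.5% in KD1, 71.5% in KD2 and 64.9% in both. With 1 bin per model those were 70.7%, 70.7% and 59.8% of 92 models. The 151 bins include the 88. The other 63, with a METTL14 value of at least 0.5 in size, were at 74.6% in KD1, 61.9% in KD2 and 50.8% in both. With 1 bin per model these were 62.8%, 69.8% and 53.5% of 43 models, near the shares of all 636. Counted by model, the higher shares among bins past 1 thus came with the METTL3-only bins.

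The share of METTL3-only bins near a listed m6A site was close to that of all models once each model counted once. Of the 88 bins, 22 held a site or lay within 1 kb of one, against 17.5% of all bins. With 1 bin per model the share was 20.8% of 53 models, against 19.8% of all 636.

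The METTL3-only bins with the largest values in single-gene models included 3 higher ones. RAN, the GTPase that drives nuclear transport, was at 2.35 for bin 17 in METTL3 knockdown and 0.14 in METTL14 knockdown in the authors' deposited table, with 1.05 in KD1 and -0.58 in KD2. RPL28, a protein of the large ribosomal subunit, was at 1.81 for its 3'-most bin in METTL3 knockdown and 0.22 in METTL14 knockdown in the authors' deposited table, and its other bins were at -0.20 and 0.06 in METTL3 knockdown. The third was C11orf59 bin 2, given above with its listed m6A site.

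The lower ones spanned several pathways. NUDT5, an enzyme that cleaves ADP-ribose, was at -2.53 for its 5'-most bin in METTL3 knockdown and -0.43 in METTL14 knockdown, with -2.23 in KD1 and -0.82 in KD2 in the authors' deposited table. NUCKS1, a nuclear DNA-binding protein, was at -2.31 for bin 6 in METTL3 knockdown and 0.17 in METTL14 knockdown, with -2.61 in KD1 and -0.51 in KD2 in the authors' deposited table. Bin 6 of NUCKS1 (chromosome 1, 205688805 to 205689628, minus strand) ends 36 bp from a listed m6A site, and the other 3 bins of the gene were within 0.07 of 0 in METTL3 knockdown in the authors' deposited table. NUDT5 and NUCKS1 were lower in METTL3 knockdown and in both HNRNPG knockdowns, and within 0.5 of 0 in METTL14 knockdown.

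CTNNB1 was on the lower side in all 4 knockdowns, while XRCC3 was on the other side in the HNRNPG knockdowns. CTNNB1 (beta-catenin) was at -1.80 for bin 15 in METTL3 knockdown and -0.21 in METTL14 knockdown, with -0.28 in KD1 and -7.52 in KD2 in the authors' deposited table. XRCC3, a protein of homologous recombination, was at -1.76 for its 1 listed bin in METTL3 knockdown and -0.07 in METTL14 knockdown, with 0.17 in KD1 and 0.86 in KD2 in the authors' deposited table. CAMK2G, a calcium-dependent kinase, was at -1.68 for bin 23 in METTL3 knockdown and -0.41 in METTL14 knockdown, with -1.14 in KD1 and -0.69 in KD2 in the authors' deposited table. Of these 3 genes, CAMK2G was beyond 0.5 on the lower side in KD1 and KD2 alike.

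**Figure D3:**
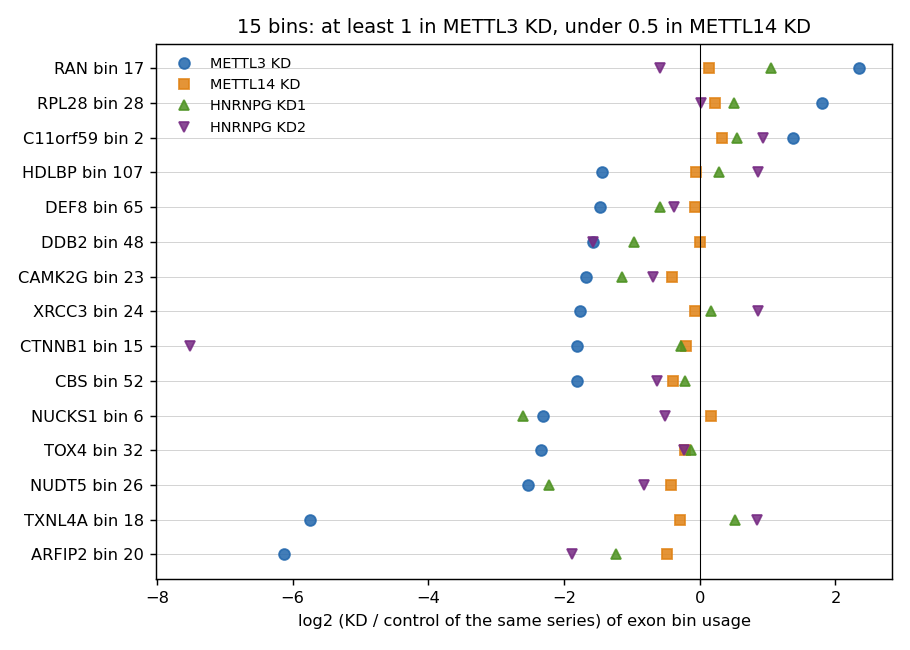
log2 ratio of knockdown over control for the 15 METTL3-only bins of at least 20 bp with the largest values in single-gene models, 1 bin per model, in METTL3, METTL14 and both HNRNPG knockdowns. METTL14 points lie within 0.5 of 0 by the choice of the bins, and 12 of the 15 METTL3 points lie on the lower side.

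In joined models the largest METTL3-only values were on the lower side as well. RASA4P with POLR2J4 was at -7.82 for bin 45 in METTL3 knockdown and 0.19 in METTL14 knockdown in the authors' deposited table. RPL11 with TCEB3, whose first gene encodes a protein of the large ribosomal subunit, was at -3.91 for bin 9 in METTL3 knockdown and 0.03 in METTL14 knockdown, with -0.04 in KD1 and -2.40 in KD2 in the authors' deposited table. RPS10 with NUDT3 was at -2.06 for bin 49 in METTL3 knockdown and 0.12 in METTL14 knockdown in the authors' deposited table. POLR2J4 and RASA4P have near-identical copies elsewhere in the genome, so the counting of their reads is uncertain.

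In some genes all or most of the listed bins lay on 1 side in METTL3 knockdown. Of 211 models with at least 4 listed bins, 31 had all bins below 0 and 13 had all bins above 0. The median of the model was at least 0.5 lower in 28 and at least 0.5 higher in 8 in METTL3 knockdown, against 18 and 6 in METTL14 knockdown. In 4 of the 211 the METTL3 value minus the METTL14 value, taken bin by bin, had a median of at least 1 in size. These were PCNP, CTBP1, LOC100129917 and DEF8.

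DEF8, which encodes a protein linked to lysosome positioning, held the largest number of METTL3-only bins. Of its 13 bins in the authors' deposited table, 12 (chromosome 16, 90027354 to 90034467, plus strand) were between -1.55 and -1.03 in METTL3 knockdown. The same 12 bins were between -0.11 and 0.17 in METTL14 knockdown in the authors' deposited table. KD1 was between -0.67 and -0.30 and KD2 between -0.65 and -0.27 over these bins in the authors' deposited table. The 5'-most bin, bin 46, was the exception, at 0.13 in METTL3 knockdown and -0.03 in METTL14 knockdown in the authors' deposited table. Every bin after it was lower in METTL3 knockdown, in KD1 and in KD2, and the values of METTL14 knockdown stayed near 0.

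ZDHHC3, a palmitoyltransferase of the Golgi, was lower along all of its 7 bins. Its 5 touching 3' bins (chromosome 3, 44956754 to 44959635, minus strand) were between -1.24 and -1.08 in METTL3 knockdown and between -0.19 and -0.05 in METTL14 knockdown in the authors' deposited table. Bin 4 among them holds a listed m6A site and was at -1.13 in METTL3 knockdown in the authors' deposited table, in the middle of the 5. KD2 was between -0.68 and -0.43 and KD1 between -0.19 and -0.07 over the 5 bins in the authors' deposited table. Touching bins can share reads, so these 5 are nearer to 1 stretch of transcript than to 5 measurements.

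DDB2, the subunit that recognises ultraviolet damage for nucleotide excision repair, had 5' and 3' bins on different sides. Its first 6 bins (chromosome 11, 47236663 to 47238600, plus strand) were between 0.32 and 0.42 in METTL3 knockdown in the authors' deposited table. Of the 12 bins from bin 38 on (47256649 to 47261429), 11 were between -1.57 and -0.53 and bin 49 was at 0.32 in METTL3 knockdown in the authors' deposited table. METTL14 knockdown ran between 0.03 and 0.23 in the first 6 bins and between -0.57 and 0.00 in those 11 in the authors' deposited table. The same turn from higher 5' bins to lower 3' bins was seen in all 4 knockdowns, with bin 48 at 0.00 in METTL14 knockdown, and METTL3 knockdown had the lowest median of the 4 over the model, at -0.81 against -0.23 in METTL14 knockdown, -0.54 in KD1 and -0.47 in KD2 from the authors' deposited table. Bins 56 and 57 are 1 bp each and had the same METTL3 value in the authors' deposited table.

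C11orf59, now LAMTOR1, a subunit of the Ragulator complex that holds mTORC1 at lysosomes, had 3 levels along the model. In METTL3 knockdown the 8 5'-most bins were between -0.70 and -0.58, the 4 middle bins between 0.12 and 0.17, and the 3 touching 3' bins (chromosome 11, 71796023 to 71798324, minus strand) between 1.18 and 1.38 in the authors' deposited table. METTL14 knockdown was within 0.05 of 0 in the first 12 bins and between -0.22 and 0.43 in the last 3 in the authors' deposited table. KD1 and KD2 followed METTL3 knockdown, with values between -0.30 and -0.07 over the 8 5' bins and between 0.51 and 0.93 over the 3 3' bins in the authors' deposited table. All 3 bins at the 3' end were higher in METTL3, KD1 and KD2 knockdown, and 1 of them, bin 1, was lower in METTL14 knockdown.

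Shorter stretches were lower in METTL3 knockdown in further genes. HDLBP, the RNA-binding protein vigilin, had 3 touching bins at -1.44, -1.38 and -1.43 in METTL3 knockdown, against -0.05, 0.14 and -0.11 in METTL14 knockdown, in the authors' deposited table, and KD2 was between 0.62 and 0.86 there. TTC15, now TRAPPC12, a subunit of a vesicle tether, was lower in all 7 bins, between -1.29 and -0.48 in METTL3 knockdown and between -0.63 and 0.46 in METTL14 knockdown in the authors' deposited table, while KD1 was between -0.03 and 0.73 and KD2 between 0.09 and 0.63. KIAA2013 was between -1.08 and -0.87 in 5 of 6 bins in METTL3 knockdown and between -0.36 and -0.15 in METTL14 knockdown in the authors' deposited table. HDLBP and TRAPPC12 thus had KD2 on the other side from METTL3 knockdown, and KIAA2013 had KD2 on the same side, between -1.12 and -0.83 in the authors' deposited table.

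CBS and MAPK9 changed side along the model. CBS, the enzyme that makes cystathionine from homocysteine, was at 0.97, 0.92 and 0.77 in its 3 5'-most bins and at -1.38 and -1.82 in bins 53 and 52 in METTL3 knockdown in the authors' deposited table. In METTL14 knockdown the 3 bins were at -0.25, -0.11 and -0.02, and bins 53 and 52 at -0.49 and -0.40, in the authors' deposited table. MAPK9, which encodes the kinase JNK2, was between 0.19 and 1.35 in its 6 5'-most bins and between -0.48 and -0.13 in the other 7 in METTL3 knockdown in the authors' deposited table. METTL14 knockdown had the sign of METTL3 knockdown in all 13 bins of MAPK9, at between 0.06 and 0.85 in the 6 and between -0.22 and -0.13 in the 7, in the authors' deposited table. For CBS the 2 knockdowns were on opposite sides at the 5' end and on the same side in bins 52 and 53.

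**Figure D4:**
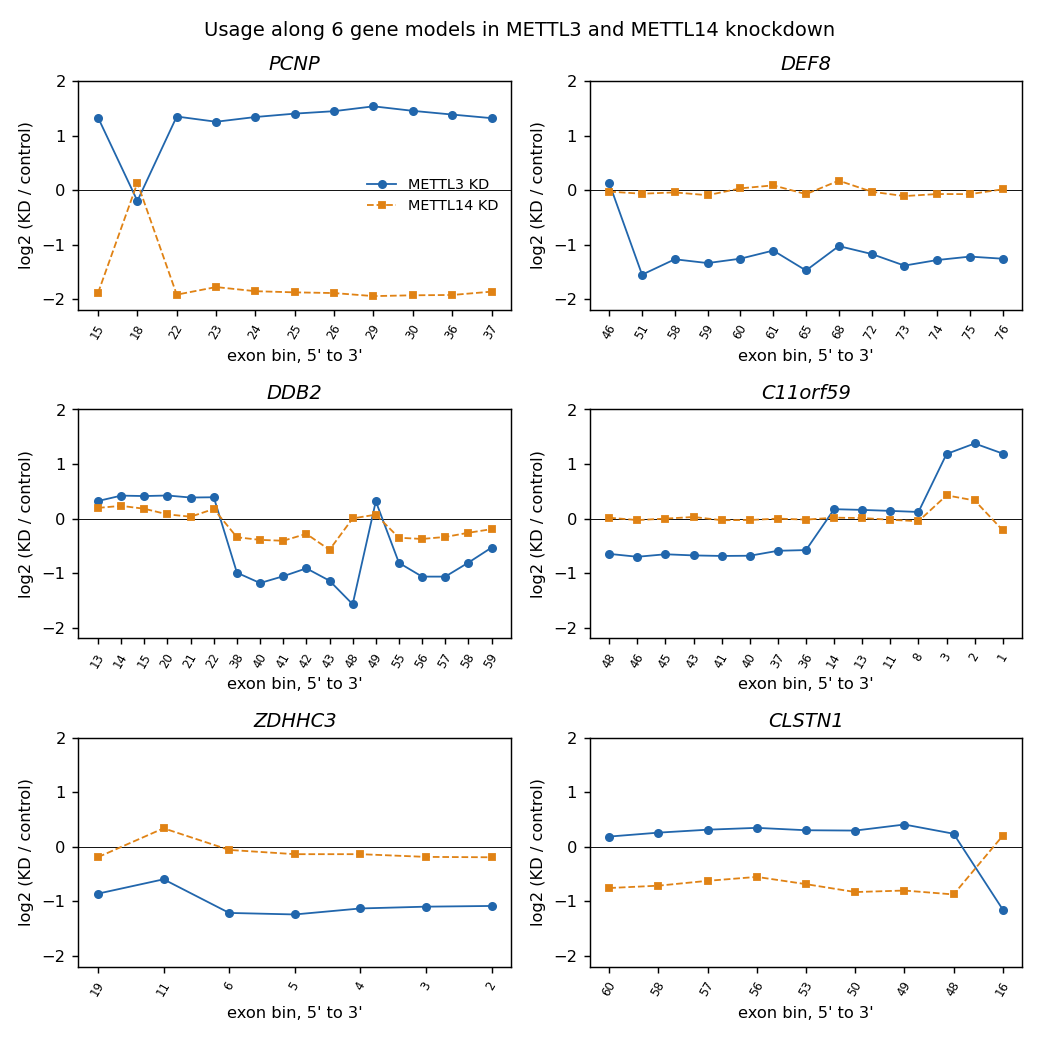
log2 ratio of knockdown over control for each listed bin of 6 gene models, ordered from 5' to 3' and evenly spaced, in METTL3 (circles) and METTL14 knockdown (squares). PCNP points lie at 1.25 to 1.54 in METTL3 and at -1.95 to -1.78 in METTL14 knockdown in 10 of 11 bins, and 12 of 13 DEF8 bins lie between -1.55 and -1.03 in METTL3 and between -0.11 and 0.17 in METTL14 knockdown.

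Opposite changes in METTL3 and METTL14 knockdown were few. In 35 bins (1.33%) of 20 models both values were at least 0.5 in size on opposite sides, with METTL3 knockdown the higher one in 18 bins and the lower one in 17. Of the 26 bins past 1 in both knockdowns, 16 in 14 models were on the same side and 10 were on opposite sides. All 10 were bins of PCNP.

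PCNP, a nuclear protein with PEST sequences, had the widest gap between the medians of the knockdowns among the 211 models with at least 4 listed bins. Of its 11 bins in the authors' deposited table, 10 (chromosome 3, 101293067 to 101311619, plus strand) were between 1.25 and 1.54 in METTL3 knockdown and between -1.95 and -1.78 in METTL14 knockdown. The remaining bin 18 was at -0.20 in METTL3 knockdown and 0.13 in METTL14 knockdown in the authors' deposited table. KD1 was between 0.01 and 0.09 and KD2 between -0.19 and -0.02 in the 10 bins in the authors' deposited table. The 10 bins moved as 1 block in each METTL knockdown and were near 0 in both HNRNPG knockdowns.

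Further models had opposite values of smaller size. CLSTN1, a cargo adaptor for kinesin, was between 0.19 and 0.41 in 8 of 9 bins in METTL3 knockdown and between -0.87 and -0.55 in METTL14 knockdown, and its 3'-most bin was at -1.15 and 0.21, in the authors' deposited table. CTBP1, a corepressor of transcription, was at -1.09, -0.76 and -0.46 in 3 touching 3' bins in METTL3 knockdown and at 0.77, 0.69 and 0.83 in METTL14 knockdown in the authors' deposited table. LOC100129917 was between -1.09 and -0.94 in its 4 bins in METTL3 knockdown and between 0.16 and 0.27 in METTL14 knockdown in the authors' deposited table. In all 3 models most bins took 1 sign in METTL3 knockdown and the other in METTL14 knockdown.

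Single bins with opposite values covered metabolism, transport and signalling. FDXR, which passes electrons to mitochondrial cytochromes, was at 1.45 for its 1 listed bin in METTL3 knockdown and -0.54 in METTL14 knockdown, with 1.20 in KD1 and 1.03 in KD2 in the authors' deposited table. MAP3K7 (the kinase TAK1) was at 0.97 for bin 25 in METTL3 knockdown and -0.54 in METTL14 knockdown, with 0.82 in KD1 and 0.31 in KD2 in the authors' deposited table. GGA1, an adaptor for sorting at the Golgi, was at 0.86 for bin 17 in METTL3 knockdown and -0.74 in METTL14 knockdown, with -0.56 in KD1 and -1.98 in KD2 in the authors' deposited table. HNRNPG knockdown thus lay with METTL3 knockdown for FDXR and MAP3K7 and with METTL14 knockdown for GGA1. PPA2, a mitochondrial pyrophosphatase, had the reverse signs, at -0.92 for bin 55 in METTL3 knockdown and 0.76 in METTL14 knockdown in the authors' deposited table.

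**Figure D5:**
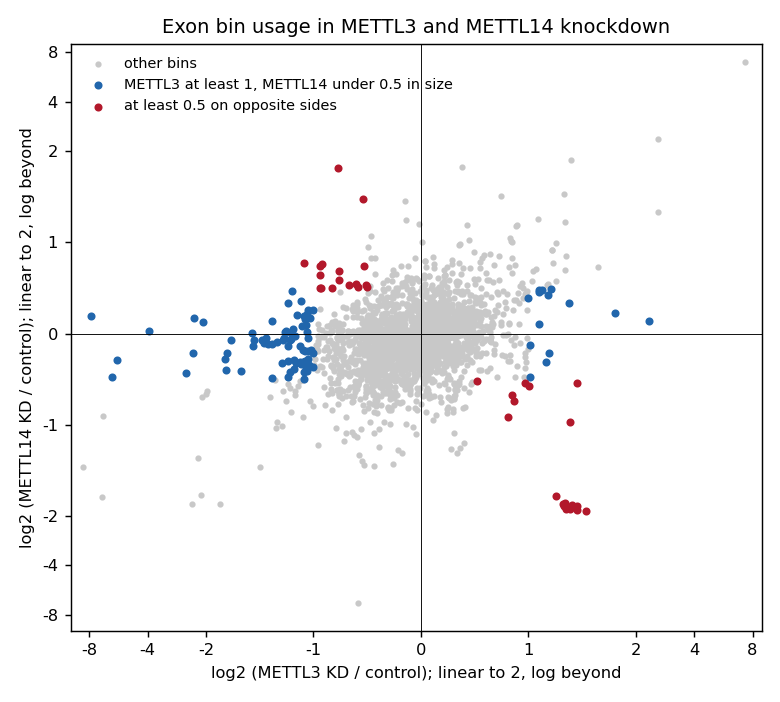
log2 ratio of knockdown over control for each of the 2635 bins in METTL3 (horizontal) and METTL14 knockdown (vertical), on axes linear up to 2 and logarithmic beyond. The 88 METTL3-only bins (blue) lie mostly on the left, and the block of 10 PCNP bins lies at the lower right among the 35 bins with opposite values (red). The knockdowns share control libraries, so the common slant of the points cannot be told apart from an effect of that control. It was not tested.

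Gene groups were counted from lists drawn up for RNA processing, m6A and the broad functions of the listed genes. Against 5.73% past 1 and a median of -0.04 over all bins, SR proteins had 0 of 45 bins past 1 in 9 models with a median of -0.13, and cleavage, export and decay factors 0 of 58 in 9 models with a median of 0.02. Genes of m6A writers, erasers and readers had 0 of 6 bins past 1 in METTL3 knockdown, all in readers (HNRNPA2B1, ELAVL1 and HNRNPC). HNRNPA2B1 was the largest of them, at 0.82 for bin 1 in METTL3 knockdown and 1.05 in METTL14 knockdown in the authors' deposited table. For other splicing regulators 3 of 96 bins were past 1, all lower, in TAF15, PSPC1 and the joined model of MATR3. The core spliceosome had 2 of 27 (7.41%), both lower and given above as TXNL4A and PRPF8.

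Translation factors had the lowest median of the lists, and ribosomal proteins a median nearer to that of all bins. Translation factors had a median of -0.33 over 65 bins in METTL3 knockdown and 0.03 in METTL14 knockdown. In METTL3 knockdown 3 lower bins and 0 higher were past 1 (4.62%, against 5.73% of all bins). Of these 65 bins, 27 belonged to the joined model of EEF1D, an exchange factor of elongation, and NAPRT1, and all 27 were below 0 in METTL3 knockdown, between -1.46 and -0.01 in the authors' deposited table. The median of this model was -0.63 in METTL3 knockdown and 0.28 in METTL14 knockdown. Ribosomal proteins had 1 higher and 2 lower of 136 bins past 1 (2.21%) with a median of -0.09, in RPL28, RPL11 and RPS10. The low median of the translation list thus came with 1 large model.

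DNA repair and zinc finger genes had larger shares past 1 than all bins, and each rested on few models. DNA repair genes had 7 of 37 bins past 1 (18.9%), all lower, with a median of -0.28 over the list, of which 6 were in DDB2 and 1 in XRCC3. FANCI, of the Fanconi pathway, was at -0.96 for bin 83 in METTL3 knockdown and -0.08 in METTL14 knockdown in the authors' deposited table. Genes named ZNF or ZFP had 7 higher and 2 lower of 49 bins past 1 (18.4%), of which 5 higher ones were in ZNF655. From bin 66 on, the 7 bins of ZNF655 were between 0.91 and 1.34 in METTL3 knockdown, 0.34 and 0.70 in METTL14 knockdown, 0.82 and 1.499 in KD1 and 0.32 and 0.95 in KD2 in the authors' deposited table. ZNF276 was at 1.16 and ZNF8 at -1.20 in METTL3 knockdown, against -0.31 and 0.01 in METTL14 knockdown, in the authors' deposited table.

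The other groups lay on either side of the 5.73% of all bins past 1, and their bins past 1 were often in 1 or 2 models. Kinases and phosphatases had 3 higher and 1 lower of 37 bins past 1 (10.8%), and chromatin genes 3 higher and 1 lower of 80 (5.0%). The 3 higher chromatin bins were touching bins of the joined model S1PR2 and DNMT1. Membrane traffic genes had 5 lower and 0 higher of 90 bins (5.56%), 1 in ARFIP2 and 4 in DNM1 (dynamin). Bin 46 of DNM1 was at -1.29 in METTL3 knockdown and -1.01 in METTL14 knockdown in the authors' deposited table. Cytoskeletal genes had 2 higher and 3 lower of 135 (3.7%), and mitochondrial genes 1 higher and 4 lower of 88 (5.68%). Glycolysis and lactate genes had 2 of each among 39 bins (10.3%), with a median of -0.16. Cell cycle genes had 1 higher and 2 lower of 15 (20.0%), also with a median of -0.16. Nuclear transport genes had 1 of each among 8, in RAN and RANGAP1. The cell cycle and nuclear transport lists had larger shares past 1 than the other lists, over few bins. Ubiquitin and proteasome genes had a median of -0.25 and 1 higher of 72 bins past 1 (1.39%), in COPS8. The 4 touching bins of COPS8 were between 0.84 and 1.09 in METTL3 knockdown and between 1.01 and 1.26 in METTL14 knockdown in the authors' deposited table.

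The limit of 1 divides bins with nearly the same values. In the authors' deposited table the 3 METTL3 values nearest to it from outside were -0.993 for TTC15 bin 41, -0.994 for DDB2 bin 38 and 0.998 for the joined model PAOX and MTG1. Nearest inside it were C20orf72 bin 17 at -1 and ZNF655 bin 79 at 1, to 3 decimals, and KIAA2013 bin 7 at -1.001 in the authors' deposited table.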

How the data were processed

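RNA-seq libraries of HEK293T cells were grouped by their titles, 2 for METTL3 knockdown and 2 for the METTL-series control. Tools named in the submitters' processing notes, without roles, are TopHat 1.1.4, Bowtie 1.0.0, Cuffdiff, Cufflinks and Trimmomatic, with hg19 as the build. DEXSeq is named in the sample descriptions. Each bin has a log2 ratio, control divided by knockdown, computed and deposited by the authors, per the file headers. By its title, the deposited table is limited to genes that contain HC-m6A sites. The labels and headers do not state how the ratios were normalized or how bins were chosen for listing within those genes. Per the labels' protocols, libraries were stranded, and knockdowns and controls shared a flowcell.

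Deposited log2 values were multiplied by -1. With 1 value per bin and no counts, depth is unknown and no test or leave-one-out value was computed, and intervals over bins served only to judge the alternatives. Bins were sorted by length, by distance to the listed m6A sites of their model, by model type and by listed bins per model. A bin was past 1 at a size of at least 1, and METTL3-only if METTL14 was also under 0.5. Touching bins were joined into stretches for an alternative. Of 780 symbols, 675 were current, 87 older symbols were matched in RefSeq and 18 were not matched.

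Members, lists and the rule for named bins were chosen with earlier results of these data known. The rule took the 15 highest and 15 lowest bins of at least 20 bp in single-gene models, 5 of each side in joined models, 15 METTL3-only bins, 10 opposite bins, models past 1 both ways, up to 4 per list, and the 6 highest and 6 lowest with an m6A site inside or of at least 500 bp. Some were left out for length, and 1 joined model is not reported here. Genes described along their models were chosen after their values were seen. Counting was checked on simulated data. Python 3.11.15, numpy 2.4.6, pandas 2.3.3 and matplotlib 3.10.9 were used.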

Additional observations from a re-analysis of the deposited data

How the results depend on the processing

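Of the alternatives tried, 21 left a value within 1.5 times of the reported count or near the reported share or median, and 2 moved it by their own construction. With a size of at least 0.5 in place of 1, METTL3 bins counted were 590 in place of 151. With METTL14 under 0.25 in place of 0.5, METTL3-only bins were 47 in place of 88. With the table's median subtracted, the share of higher bins past 1 was 37.4% in place of 31.1%. Counts of bins past 1 ran from 120 (1 touching stretch counted once, an alternative chosen after seeing the data) to 155 (median subtracted). METTL3-only bins were 76 without DEF8 and 67 with touching stretches counted once, and bins with opposite values were 25 without PCNP, alternatives also chosen after seeing the data. No paired analysis was possible because the table gives 1 value per comparison and none per library, and for the same reason leaving out a replicate was not run. Depth limits each value by an amount that is unknown here.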
